A study of Mus musculus with 2 samples.

Results

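Mir770, Mir673, Mir493, Mir341 and Mir370 are microRNA (miRNA) genes that lie along and between the long noncoding RNA genes Meg3 and Rian on mouse chromosome 12. They were chosen by gene symbol, as miRNA genes of the Dlk1-Dio3 locus at or after Meg3 and in Rian that belong neither to the group antisense to Rtl1 nor to the cluster from Mir379 to Mir410. They are 5 of the 2202 miRNA genes counted. They are not all the miRNA genes of that stretch, since 7 others listed from Meg3 to Rian were not chosen. Position alone does not set the 5 apart from these, and no reason for leaving them out is given. The rule uses names and positions and no measured value, although earlier results of these data were known when the genes were chosen. Small RNA was sequenced from hippocampus of wild-type mice on the C57BL/6 background (strain B6NCrl, adult, 6 months old). The labels add that the tissue is a layer of hippocampus without naming the layer, and they call the animal male in one field while the sex field reads not collected. No allele or agent was compared: the 2 libraries, numbered biological replicates 1 and 2, form 1 group. Both carry 1 donor identifier, so separate animals are not stated and the spread between the libraries may be technical.

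A miRNA is cut from a hairpin precursor in which a 5′ arm pairs with a 3′ arm. The mature strand guides Argonaute proteins to messenger RNAs, mainly through its seed, the bases from position 2 to 8. Dlk1-Dio3 is an imprinted domain: its noncoding RNAs, Meg3, the antisense transcript of Rtl1, Rian and Mirg, are expressed from the maternal chromosome, while Dlk1, Rtl1 and Dio3 are expressed from the paternal one. Most miRNAs of the domain are thought to be cut from long maternal transcripts, and the domain is strongly expressed in brain.

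The mature arms of the 5 genes are shown here because the counts do not separate the arms of a hairpin, so each level below stands for a pair of different seeds. They were taken from RefSeq (GRCm38.p6), run 5′ to 3′ on the plus strand, and carry the seed in capitals. All 5 genes matched an entry.
miR-770-5p: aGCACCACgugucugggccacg
miR-770-3p: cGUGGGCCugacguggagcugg
miR-673-5p: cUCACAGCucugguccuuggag
miR-673-3p: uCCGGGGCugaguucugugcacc
miR-493-5p: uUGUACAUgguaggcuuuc
miR-493-3p: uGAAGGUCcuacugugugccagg
miR-341-5p: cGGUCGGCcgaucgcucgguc
miR-341-3p: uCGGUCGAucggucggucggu
miR-370-5p: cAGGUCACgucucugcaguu
miR-370-3p: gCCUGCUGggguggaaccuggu

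No seed occurred in more than 1 of these 10 arms. The genes thus share a locus and a strand but no seed family. Among the other mature miRNAs of the RefSeq table, 8 of the 10 seeds had no match. The seed of miR-370-5p was also that of miR-1193-3p, whose gene Mir1193 lies in the same domain, and the seed of miR-673-5p was also that of miR-6985-3p on chromosome 19. These arms are shown for comparison, since only the seed and not the rest of the arm is shared.
miR-1193-3p: uAGGUCACccguuuuacuauc
miR-6985-3p: cUCACAGCcaccuccucacag
The miRNA genes of both seed partners were counted at lower levels than the genes they match. The levels were 35.6 and 41.1 CPM for Mir1193 and 5.65 and 7.74 CPM for Mir6985 in replicates 1 and 2. CPM are read counts on the strand of the gene, scaled to 1000000 counts over all miRNA genes of the library. Mir1193 and Mir6985 are named for their seeds, outside the rule for named genes, as are markers at 0 and Mir3544 below.

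The libraries held 11106392 and 12627039 reads, of which 4247092 (38.2%) and 5041568 (39.9%) were counted on miRNA genes. Reads that aligned to more than 1 place, 43.8% and 45.7%, are in no gene's count. Marker miRNAs of neurons summed to 198599 and 177398 CPM in replicates 1 and 2, with all 5 of 5 counted. Of these neuron markers, 4 reached 10 CPM in both libraries, and these 4 also reached 1000 CPM. By the test between libraries described below, 1 neuron marker passed as higher and 3 as lower in replicate 2. The choroid plexus and ependyma markers (5 of 5 counted, none at 0) came to 9225 and 3148 CPM in the same order. In the test between libraries described below, 3 of these 5 passed as lower and 1 as higher in replicate 2. Only 1 of the 5 reached 1000 CPM in both libraries. The markers of hindbrain and spinal cord summed to 20.7 and 44.6 CPM, with Mir196a-1 at 0. Oligodendrocyte markers (2 of 2 counted) came to 5805 and 8777 CPM, and muscle markers (4 listed, Mir1a-2 at 0) to 116 and 42.8 CPM. Only 1 of the 4 muscle markers and 1 of the 6 hindbrain and spinal cord markers reached 10 CPM in both libraries. The part of these marker differences in the differences between libraries described below was not tested. In bulk tissue, fewer cells of a type and less RNA per cell cannot be told apart.

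All 5 genes reached the level taken as detection, at least 10 CPM in each library, as 302 of the 2202 genes (13.7%) did. Mir770 stood far above the others, at rank 13 of all miRNA genes by mean CPM of reads that aligned to 1 place. Mir370 and Mir341 followed at ranks 76 and 86, then Mir673 at rank 127 and Mir493 at rank 213. Mir770, Mir370 and Mir341 each reached 1000 CPM in both libraries, as 86 of 2202 genes (3.91%) did. The genes span a range of 187-fold between Mir770 and Mir493, although they are annotated on the same strand within one imprinted domain.

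**Figure D1:**
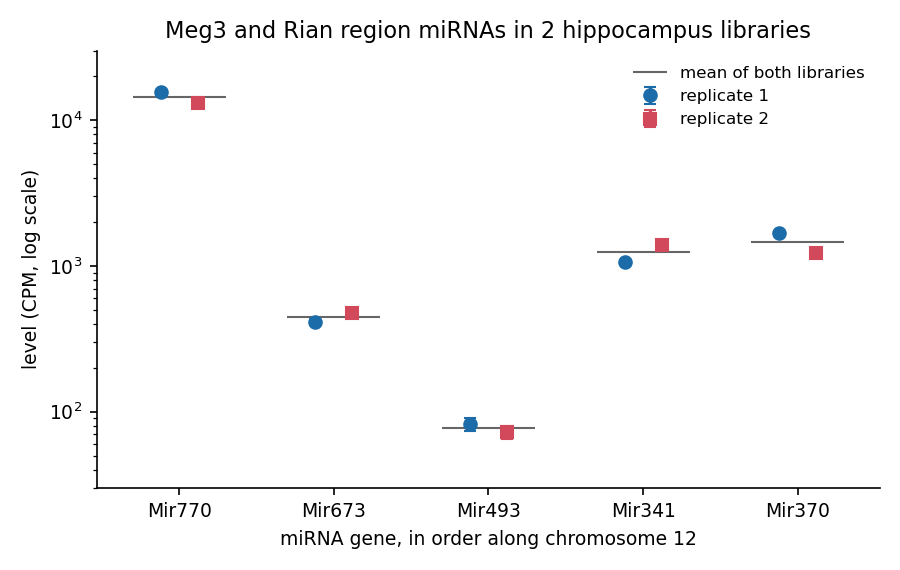
Level of each gene in replicate 1 (circles) and replicate 2 (squares), in CPM on a log scale, with the genes in their order along chromosome 12. Bars are exact 95% intervals of counting error and grey lines are means of the 2 libraries; Mir770 lies between 13212 and 15646 CPM, above every level of the other 4 genes, and Mir370 and Mir341 exchange places between the libraries.

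Mir770 lies within Meg3, a noncoding RNA known as a growth-restraining transcript that is lost in several tumours. Its hairpin (ENSMUSG00000076451.1, mm10, chromosome 12, 109563692 to 109563785, plus strand) overlaps an exon in 1 of the 4 Meg3 transcripts that span it and an intron in the other 3. It had 66451 counts in replicate 1 and 66609 in replicate 2, which is 15646 CPM (exact 95% interval 15528 to 15765) and 13212 CPM (13113 to 13312). The mean was 14429 ± 1721 CPM (SD, n = 2). The raw counts of the 2 libraries were nearly equal, while the total of replicate 2 was the larger, so its CPM was the lower. Mir770 alone made up 82.8% of the counts of the 5 genes (exact 95% interval 82.5 to 83.0%) in replicate 1, and 80.6% (80.3 to 80.9%) in replicate 2.

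Its neighbours by mean level were Mir29a directly above (15962 ± 2187 CPM) and Mir99a directly below (13938 ± 5530 CPM; SD, n = 2 each). Their ranges overlapped that of Mir770, so the rank of 13 is not set apart from theirs by the spread between libraries. The only other miRNA gene annotated inside Meg3, Mir1906-1, had 0 counts in both libraries. The limit that a count of 0 allows, 3 counts, is 0.706 and 0.595 CPM in replicates 1 and 2 for reads that aligned to 1 place, and sets no limit on reads that aligned to several.

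The hairpin of Mir770 is shown whole, with both arms in capitals, because the gene with the highest level of the 5 also has the highest share of G and C and the strongest predicted folding among them. It was taken from the GENCODE M21 transcripts and equals the RefSeq hairpin.
Mir770 hairpin: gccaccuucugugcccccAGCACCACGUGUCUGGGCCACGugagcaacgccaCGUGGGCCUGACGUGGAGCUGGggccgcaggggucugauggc
Of its 94 bases, 70.2% are G or C, against a median of 50.8% over the 2202 hairpins, and 66 of the 2202 have as high a content. Its predicted minimum free energy, a measure of how strongly the arms pair, was -58.2 kcal/mol or -0.62 kcal/mol per base, and 2.54% of hairpins fold at least as strongly per base.

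Mir673 and Mir493 lie downstream of Meg3 as annotated by GENCODE, Mir673 only 264 bases past its last base and Mir493 8507 bases past it. Neither overlaps another GENCODE gene. The RefSeq annotation of Rtl1, the retrotransposon-derived gene of the opposite strand needed in placenta, reaches from 109564900 to 109604418 and covers both hairpins, whereas the GENCODE gene (109589193 to 109600330) does not. Mir673 (ENSMUSG00000076316.1, chromosome 12, 109571990 to 109572080) had 1765 and 2390 counts in replicates 1 and 2, or 416 CPM (exact 95% interval 396 to 435) and 474 CPM (455 to 493). The mean was 445 ± 41.4 CPM (SD, n = 2). The level in replicate 2 was the higher, and the counting intervals do not overlap. The genes next to Mir673 by mean level were Mir375, a miRNA of endocrine cells, at 447 ± 96.8 CPM and Mir666 of the Mir379 to Mir410 cluster at 441 ± 193 CPM.

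Mir493 (ENSMUSG00000077025.2, chromosome 12, 109580233 to 109580315) was the lowest of the 5, with 348 and 363 counts. These are 81.9 CPM (exact 95% interval 73.6 to 91.0) in replicate 1 and 72.0 CPM (64.8 to 79.8) in replicate 2, with a mean of 77.0 ± 7.03 CPM (SD, n = 2). The intervals of the 2 libraries overlap. The human counterpart of this miRNA has been studied as a suppressor of metastasis. By mean level it stood between Mir193b (77.5 ± 7.55 CPM) and Mir539 (76.2 ± 11.5 CPM), a member of the Mir379 to Mir410 cluster, and these 3 levels differ by less than their spread.

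Mir341 and Mir370 lie in introns of Rian, a noncoding RNA that also hosts many C/D box small nucleolar RNAs. Both hairpins fall in introns of the 2 Rian transcripts that span them, 7560 and 14318 bases after the Rian start. Mir341 (ENSMUSG00000070101.1, chromosome 12, 109611500 to 109611595) had 4548 and 7076 counts in replicates 1 and 2, or 1071 CPM (exact 95% interval 1040 to 1102) and 1404 CPM (1371 to 1437). The mean was 1237 ± 235 CPM (SD, n = 2), and the level was higher in replicate 2. Directly above it by mean level stood Mir195a (1276 ± 929 CPM) and directly below it Mir337 (1207 ± 121 CPM), a gene of the same domain.

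Mir370 (ENSMUSG00000065433.1, chromosome 12, 109618258 to 109618336), whose miRNA has been studied in hepatic lipid metabolism, had 7181 and 6203 counts. These are 1691 CPM (exact 95% interval 1652 to 1730) in replicate 1 and 1230 CPM (1200 to 1261) in replicate 2, with a mean of 1461 ± 326 CPM (SD, n = 2). Here the level was higher in replicate 1, opposite to Mir341. By mean level it stood between Mir181d (1473 ± 175 CPM) and Mir128-2 (1440 ± 90.7 CPM), a neuronal miRNA gene, and the 3 ranges overlap.

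The Mir341 hairpin is shown because it holds repeats of the tetramer UCGG, set in capitals.
Mir341 hairpin: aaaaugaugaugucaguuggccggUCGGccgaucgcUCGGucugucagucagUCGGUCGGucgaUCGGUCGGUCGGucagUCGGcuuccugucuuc
UCGG was searched on the strand of the hairpin and occurs 8 times without overlap, the most of all 2202 hairpins, in which the next highest number is 5. At least 1 UCGG stands in 279 of the 2202 hairpins (12.7%). Its reverse complement, CCGA, stands in 265 of them and occurs 1 time in Mir341. Of the other 4 genes, only Mir493 holds UCGG, 1 time. Despite the repeats, none of the 5 hairpins shares a stretch of 20 bases with another annotated hairpin that does not overlap it. Copies elsewhere in the genome were not searched, and reads that aligned to several places are missing from the count.

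**Figure D2:**
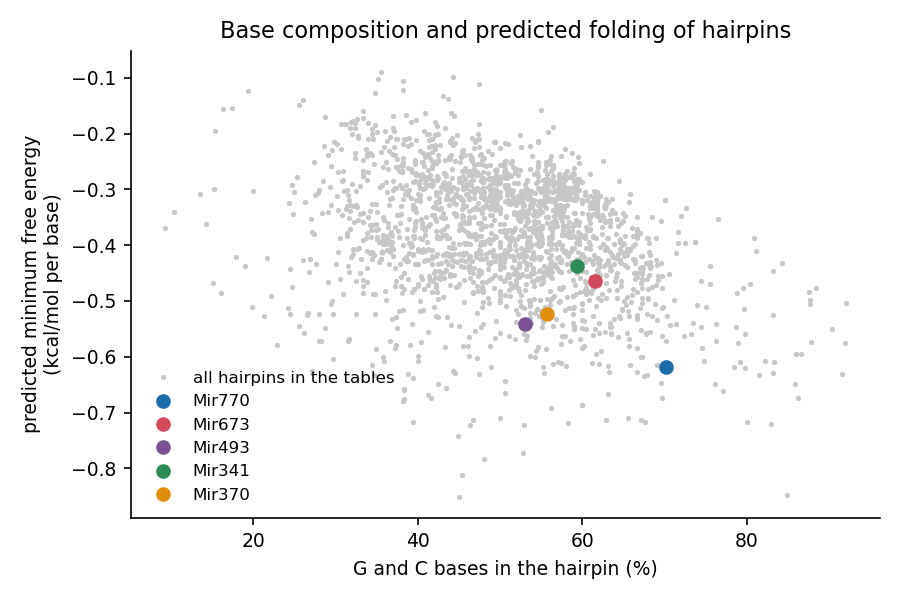
Share of G and C bases (%) against predicted minimum free energy per base (kcal/mol, RNAfold) for the hairpins in the tables (grey) and the 5 genes (colours). Mir770 lies at 70.2% and -0.62 kcal/mol per base, and all 5 genes lie below the median energy of -0.37 kcal/mol per base.

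All 5 hairpins were richer in G and C than the median hairpin, from 53.0% in Mir493 to 70.2% in Mir770. Mir370 had 55.7%, Mir341 59.4% and Mir673 61.5%. Their predicted energies ran from -0.44 kcal/mol per base in Mir341 to -0.62 in Mir770, below the median of -0.37 over all hairpins and of -0.42 over 58 listed hairpins of the domain. Strong pairing and level did not follow the same order, since Mir493, with the lowest level, had the second strongest energy per base at -0.54 kcal/mol. These are descriptions of 5 hairpins and no test was made.

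The order of levels was Mir770, Mir370, Mir341, Mir673 and Mir493 by mean CPM. A read spans a whole mature miRNA, so CPM was not divided by hairpin length. Mir770 exceeded Mir370 9.25-fold in replicate 1 (exact 95% interval 9.03 to 9.48) and 10.7-fold in replicate 2 (10.46 to 11.02). Mir341 exceeded Mir673 2.58-fold (2.44 to 2.72) and 2.96-fold (2.83 to 3.10). Mir673 exceeded Mir493 5.07-fold (4.52 to 5.71) and 6.58-fold (5.89 to 7.37). These 3 steps of the order were the same in both libraries, and the ranges of the genes on either side did not overlap.

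The remaining step was not the same. Mir370 was 1.58 times as high as Mir341 in replicate 1 (exact 95% interval 1.52 to 1.64), and Mir341 was 1.14 times as high as Mir370 in replicate 2 (1.10 to 1.18). The means, 1461 ± 326 and 1237 ± 235 CPM (SD, n = 2 each), differ by less than the spread between libraries, so Mir370 and Mir341 have no order in these data. When CPM was divided by hairpin length, a setting added after the values were seen, Mir370 was the higher in both libraries, 1.92-fold in replicate 1 and 1.07-fold in replicate 2.

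**Figure D3:**
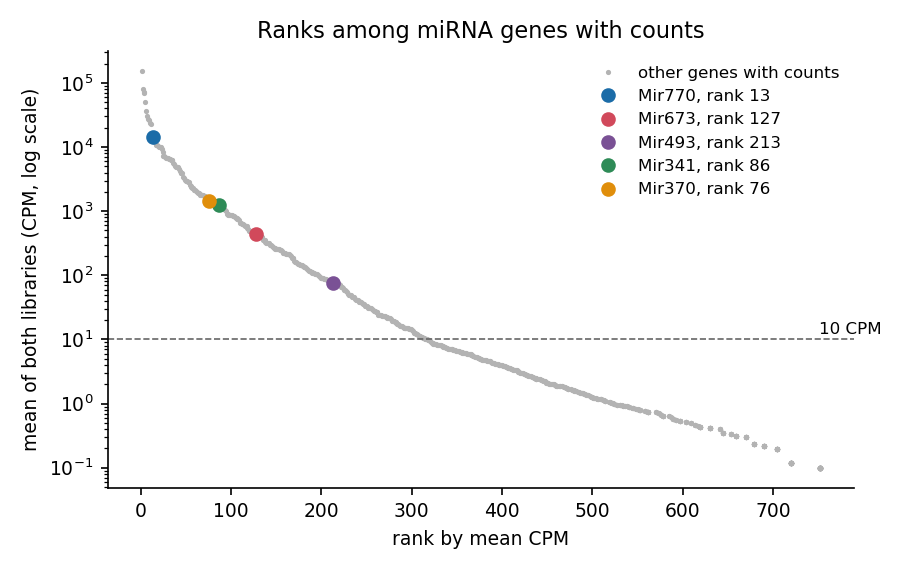
Mean CPM of the 2 libraries (log scale) against rank for all miRNA genes with counts (grey) and the 5 genes (colours). Mir770 lies at rank 13 on the steep part of the curve, and Mir493 at rank 213 is still above the dashed line at 10 CPM.

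The 5 genes were next placed among 58 listed genes of the domain, in 4 lists that do not hold every annotated miRNA gene there. These held the 5 described here, 7 others from Meg3 to Rian, 7 listed as Rtl1 antisense and 39 as Mir379 to Mir410. In the Rtl1 antisense list, Mir3071 (0 counts) is annotated on the minus strand. In the Mir379 to Mir410 list, Mir299b is annotated on the minus strand and Mir3072 lies past Mir410. The 5 genes held 14.5% of the counts of the 58 genes (exact 95% interval 14.4 to 14.6%) in replicate 1, and 13.6% (13.5 to 13.6%) in replicate 2. Of all counts on miRNA genes they held 1.89% and 1.64%, a summed level of 18905 and 16392 CPM. Without Mir770 the other 4 summed to 3259 and 3180 CPM. The Rtl1 antisense genes, led by Mir127, held 48.9% and 50.7% of those counts, and the Mir379 to Mir410 cluster held 35.2% and 33.9%.

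Among the 58 genes Mir770 ranked 2nd by mean CPM, after Mir127 (50774 ± 2462 CPM) and before Mir487b of the Mir379 to Mir410 cluster (9392 ± 2956 CPM; SD, n = 2 each). Mir370 ranked 12th, Mir341 15th, Mir673 25th and Mir493 39th. The median of the mean levels was 1237 CPM for the 5 genes and 273 CPM for all 58. It was 26.8 CPM for the 7 others from Meg3 to Rian, so the median of the 5 is not that of the whole stretch. Of these others, Mir337 (1207 CPM), Mir540 (482 CPM) and Mir665 (316 CPM) lay between Mir493 and Mir341 by mean level. Mir1188 (26.8 CPM), Mir3070a (8.36 CPM), Mir3070b (6.46 CPM) and Mir1906-1 (0 counts) lay below all 5. Reads that aligned to several places are missing from these levels. For the Rtl1 antisense group the median was 760 CPM and for the Mir379 to Mir410 cluster it was 241 CPM. In the Rtl1 antisense group Mir433 came next at 6774 ± 902 CPM, and Mir136 was the lowest gene with counts, at 30.8 ± 0.236 CPM. In the Mir379 to Mir410 cluster Mir382 was second at 7006 ± 411 CPM, and the lowest gene with counts, Mir299b, had 0 and 2 counts.

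**Figure D4:**
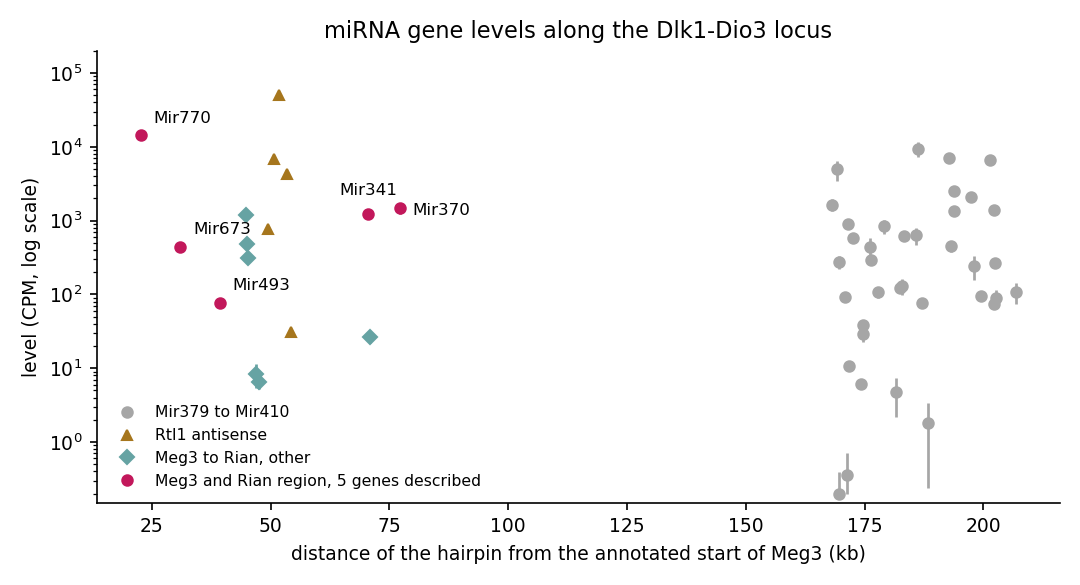
Mean CPM (log scale) of the listed miRNA genes of the domain with counts, against the distance of the hairpin from the annotated start of Meg3 (kb). Lines span the 2 libraries, and a library with no count is drawn at 0.2 CPM. Mir770, 22.7 kb from the start, is exceeded among them only by Mir127 of the Rtl1 antisense group.

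Close neighbours along the chromosome stood at unlike levels. Levels did not fall steadily with distance from the Meg3 start: Mir770 lies 22.7 kb, Mir673 31.0 kb and Mir493 39.2 kb from it, and Mir337, at 44.8 kb, reached 1121 and 1292 CPM. Mir540 (485 and 479 CPM) and Mir665 (299 and 333 CPM) follow within 1 kb of Mir337. Mir1188 begins 226 bases after Mir341 and had 22.1 and 31.5 CPM in replicates 1 and 2, far below the 1071 and 1404 CPM of Mir341. Mir3070a had 23 and 57 counts and Mir3070b 33 and 26, near the low end of the listed genes. Of the 7 other genes from Meg3 to Rian, 4 reached 10 CPM in both libraries.

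The last question was how closely the libraries agreed for these genes. Each gene with 10 or more counts over both libraries was given an exact binomial test, two-sided, of its count in replicate 2 within its sum. At a Benjamini-Hochberg adjusted p of 0.05, 266 of 522 such genes (51.0%) passed, 147 (28.2%) as higher and 119 (22.8%) as lower in replicate 2. Of the 5 genes, 4 passed, Mir341 and Mir673 as higher and Mir370 and Mir770 as lower in replicate 2. With 5 genes this share cannot be set apart from the background. All 5 are among the 302 genes with at least 10 CPM in both libraries, of which 233 passed when only these were tested. The test sets the reads of 1 library against those of another, not conditions, and with counts this deep it passes small differences.

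Mir370 had a log2 ratio (replicate 2 over replicate 1) of -0.46 (exact 95% interval -0.51 to -0.41), with an adjusted p of 1.86e-74 by the exact binomial test. Mir341 had a log2 ratio of 0.39 (0.34 to 0.44; adjusted exact binomial p = 7.23e-46). Mir370 was thus the lower and Mir341 the higher in replicate 2. Mir1188, which lies between them in Rian, was also higher in replicate 2 (log2 ratio 0.51, adjusted exact binomial p = 0.0142). Mir770 had a log2 ratio of -0.24 (-0.26 to -0.23; adjusted exact binomial p = 2.13e-207). Its p is the smallest of the 5 although its difference is only 1.18-fold, on the largest counts. Mir673 had a log2 ratio of 0.19 (0.10 to 0.28; adjusted exact binomial p = 7.29e-05).

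Mir493 had a log2 ratio of -0.19 (-0.40 to 0.03) and did not pass (adjusted exact binomial p = 0.150). It was the only one of the 5 whose call depended on the scaling: with TMM totals the ratio was -0.26 (adjusted exact binomial p = 0.0360) and with DESeq2 size factors it was -0.26 (adjusted exact binomial p = 0.0327), so that all 5 passed where 49.4% and 49.2% of tested genes did. Mir493 has the fewest counts of the 5 and the widest interval.

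**Figure D5:**
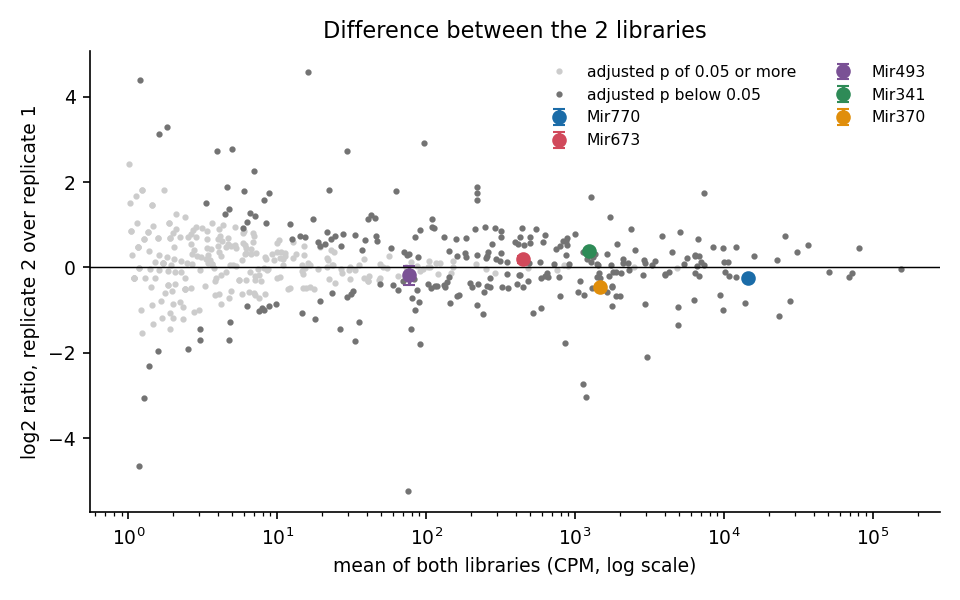
Log2 ratio of replicate 2 over replicate 1 against mean CPM (log scale) for the 522 tested genes, dark where the adjusted p was below 0.05, and for the 5 genes with exact 95% intervals of counting error. The 5 genes lie between -0.46 and 0.39, inside the band of the other genes of like level.

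In size, the differences of these genes lay among those of most detected genes. All 5 lay within 1.5-fold of each other in the 2 libraries, as did 211 of the 302 detected genes (69.9%) and 36 of the 46 detected genes among the 58. The median absolute log2 ratio was 0.24 over the 5 genes and 0.36 over the 302. The median signed log2 ratio was -0.19 over the 5 genes, 0.05 over the 302 detected genes and 0.09 over the 522 tested genes. A larger absolute ratio than that of Mir370 was found in 41.1% of detected genes, and a larger one than that of Mir493 in 71.2%.

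Over the other genes of the domain, the pattern was mixed as well. Of the 7 others from Meg3 to Rian, 6 were tested, and 4 passed as higher and none as lower in replicate 2, at an adjusted exact binomial p of 3.24e-13 for Mir337 (log2 ratio 0.20), 0.00892 for Mir665 (0.15), 0.00544 for Mir3070a (1.04) and 0.0142 for Mir1188 (0.51). Mir540 (log2 ratio -0.02) and Mir3070b (-0.59) did not pass. Of the Rtl1 antisense genes 5 were tested, with 1 higher and 2 lower, and of the Mir379 to Mir410 cluster 35 were tested, with 16 higher and 11 lower. The background was 28.2% higher and 22.8% lower, and its balance turned with the scaling, from 147 higher and 119 lower to 123 and 135 with TMM and 122 and 135 with DESeq2 size factors. Nothing particular to a list is drawn from these counts.

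The genes of the 3 other lists with the ratio nearest to each gene were Mir329 for Mir770, Mir337 for Mir673, Mir300 for Mir493, Mir485 for Mir341 and Mir369 for Mir370. The gaps in log2 ratio were 0.01, 0.01, 0.02, 0.03 and 0.01 in that order. Each gene was picked as the nearest of all tested genes in these lists, so small gaps follow from the choice and show no likeness. The ratios rest on 2 libraries only, and 1 ratio per gene allows no correlation.

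No count was found on the strand opposite any of the 5 genes in either library, and the counts taken without regard to strand equalled those on the strand of the gene. This differs from Mir337, which is annotated over Mir3544 on the opposite strand. Mir337 had 4762 and 6514 counts on its own strand in replicates 1 and 2, but no count without regard to strand. The reason for this was not tested.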

How the data were processed

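The authors deposited raw read counts per miRNA gene, 1 table per library and not normalised; the build (mm10) and annotation (GENCODE M21) stand there per the file headers. The aligner and counter were not given in the sources used here. Per the labels' protocols, the libraries cite different versions of an adapter-trimming protocol. Each table has 4 summary rows, left out of totals and tests, and 3 count columns, read from their sums as without regard to strand, on the gene's strand (used here) and opposite.

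CPM, means and SDs, exact Clopper-Pearson 95% intervals (counting error only, since no molecular identifiers are named) and the exact binomial test were computed over all genes. Log2 ratios add 0.5 counts to each library. A fit with edgeR's quasi-likelihood test needs replicated groups and was not possible. Hairpins were folded with RNAfold 2.7.2. Tools were Python 3.11.15, scipy 1.17.1, R 4.3.3, edgeR 4.0.16 (TMM) and DESeq2 1.42.0 (size factors). On simulated data for replicate 2 over replicate 1 (525 genes), the test passed 1.50% of unchanged genes and 44.8%, 75.0% and 90.8% of genes changed 1.25-, 2- and 4-fold. The simulated counts varied by counting error alone, so 1.50% is not an error rate for libraries that also differ in other ways.

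Members and lists were chosen with earlier results of these data known. Genes named are the 5 members, the others from Meg3 to Rian, the 2 highest and the lowest of each other list, the members' neighbours by mean CPM and those nearest in log2 ratio; exceptions are said to be so in the text.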

Additional observations from a re-analysis of the deposited data

How the results depend on the processing

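The levels of the 5 genes moved by less than 1 SD with TMM, DESeq2 size factors, or counts without regard to strand; without either replicate, the level is that of the other library. Scaled to all reads of the library instead of reads on miRNA genes, they were 5629 CPM for Mir770, 569 CPM for Mir370, 485 CPM for Mir341, 174 CPM for Mir673 and 30.0 CPM for Mir493, since that total also holds reads outside the miRNA genes. The ratio of Mir370 to Mir341 was 1.18 from the means and 0.877 without replicate 1 against 1.58 without replicate 2, so its direction rests on replicate 1. The other 3 neighbouring pairs kept their direction in the 3 settings tried. Mir493 passed the test between libraries with TMM (log2 ratio -0.26) and with DESeq2 size factors (-0.26), which shift all log2 ratios by -0.07 and -0.08; the other 23 alternatives of the 5 differences kept direction and call. The number of genes that passed ran from 233 to 267, against 266 of 522 tested. The 233 are of 302 genes with at least 10 CPM in both libraries, and the 267 are of 799 with at least 1 count. The share that passed thus changed with the filter. The share of the 5 genes among the 58 listed genes ran from 13.6 to 14.5%. With 2 libraries and 1 donor identifier, SDs are rough and no spread between animals can be given. Mir493, with 348 and 363 counts, is the least precise.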
